A study of Mus musculus with 17 samples.

Results

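The hepcidin and iron handling genes measured here were *Hamp*, *Hamp2*, *Bmp6*, *Id1*, *Trf*, *Tfrc*, *Tfr2*, *Slc40a1*, *Fth1* and *Ftl1*, taken as every probe that carries one of these gene symbols in the authors' table of log2 ratios. All 10 genes were found, with 12 probes of the 41174 on the array, and all 12 probes were among the 34664 probes (19358 genes) tested. *Bmp6* and *Id1* had 2 probes each. A gene's value is that of its probe brightest in the liver channel unless the other probe is named.

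The livers came from 17 male mice, 1 array per mouse. The Chow+maltose group (n = 4) ate chow and received maltose by gavage, and the Chow+binge group (n = 4) ate chow and received 1 ethanol gavage of 5 g/kg. The HFD+maltose group (n = 4) and the HFD+binge group (n = 5) ate a high-fat diet for 3 months before the same maltose or ethanol gavage. The labels give 3 months of diet for the chow groups too. The labels give the strain as C57BL/6N and the methods of the study name C57BL/6J, and the methods put the fat content of the diet at 60% of energy and death at 9 hours after gavage. No mouse carried a genetic change according to the labels, and age was not given in the sources used here. The comparisons ask what ethanol does on each diet, what the diet does with and without ethanol, and whether the ethanol effect differs between diets.

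Hepcidin, the peptide encoded by *Hamp*, is made by hepatocytes and limits the entry of iron into blood by binding ferroportin, the iron exporter encoded by *Slc40a1*, which is then degraded. Hepatocytes raise *Hamp* transcription when endothelial BMP6 signals through BMP receptors and SMAD proteins, and when interleukin-6 signals through STAT3. Inside cells, iron that arrives on transferrin is stored in ferritin, and messenger RNAs of the ferritins and of transferrin receptor 1 are controlled by iron after transcription, so an RNA level is not a protein level.

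Mice have a second hepcidin gene, *Hamp2*, next to *Hamp* on chromosome 7. The 250 bases before the start of each gene are shown because the copies were measured apart and did not follow each other across the livers. They come from RefSeq (build GRCm38.p6, minus strand, written 5′ to 3′), Hamp at chr7:30944030-30944279 and Hamp2 at chr7:30924182-30924431. Capitals mark GGCGCC, the sequence of a BMP-responsive element, and TTCNNNGAA, the sequence that STAT proteins bind.
Hamp: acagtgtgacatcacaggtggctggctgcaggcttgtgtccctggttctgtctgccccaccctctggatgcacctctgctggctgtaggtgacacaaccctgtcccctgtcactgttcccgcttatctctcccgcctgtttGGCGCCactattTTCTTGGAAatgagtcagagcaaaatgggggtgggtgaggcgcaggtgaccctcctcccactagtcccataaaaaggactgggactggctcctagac
Hamp2: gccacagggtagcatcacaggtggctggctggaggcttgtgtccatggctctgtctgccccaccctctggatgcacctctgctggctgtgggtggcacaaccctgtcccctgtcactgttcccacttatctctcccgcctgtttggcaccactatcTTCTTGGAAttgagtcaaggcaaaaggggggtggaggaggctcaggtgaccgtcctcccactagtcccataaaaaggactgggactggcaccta

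In a global alignment, 227 of 247 aligned bases were identical (91.9%). One of the 20 substitutions lies in GGCGCC: G145A, with the Hamp base first, the position counted from 1 at the 5′ end of the Hamp sequence, and the Hamp2 base last. GGCGCC starts 109 bases before the start of *Hamp* and was not found in the *Hamp2* window, whereas TTCNNNGAA was found in both. Over both strands, 11.9% of the 32851 promoter windows of 300 bases in the RefSeq table hold GGCGCC and 8.3% hold TTCNNNGAA. The table held 11 windows for 7 of the 10 genes, and GGCGCC was in 2 of them (*Hamp* and 1 of the *Tfrc* windows) and TTCNNNGAA in 2 (*Hamp* and *Hamp2*). These matches describe letters, and binding was not measured.

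The array tells the copies apart by 60-base probes that start in the same stretch of the transcripts. From its second base the *Hamp* probe aligns without gaps over 59 bases with the *Hamp2* probe, with 42 identical bases. Capitals mark the 7 bases that differ among the first 30 of that alignment.
Hamp probe: tctgctgtAaAtgctgtaacaaTTccCAGt
Hamp2 probe: tctgctgtCaGtgctgtaacaaACccTCCt
Signal shared between the copies by cross-hybridization was not measured, so the values of both genes carry that limit.

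Raw liver signals ranged from 4913 to 56488.5 for the *Hamp* probe and from 302 to 2738.5 for the *Hamp2* probe. All members lay well above background on all 17 arrays except *Id1*, which did so on 16 arrays for its brighter probe and 15 for the other, and no member spot was saturated. *Id1* (raw liver signal 36 to 101), *Tfrc* (74.8 to 190) and *Bmp6* (92 to 490) were dim. Across all arrays, 73.9 to 86.0% of probes were well above background in the liver channel. The mean log2 ratio of 5 ribosomal RNA probes was -3.81 to -2.15 in the HFD+maltose mice and -1.16 to 1.12 in the other mice, so this group stood apart in a measure of the RNA. Each difference from HFD+maltose below moves with it, and its part in those differences was not tested. Of the hepatocyte marker list, 8 genes were tested and their mean log2 level, relative to Chow+maltose, lay between -0.27 and 0.36 over all 17 livers. The summed liver signal of 4 of these markers was 250865 to 272630 in HFD+maltose and 143463 to 228280 in the other mice. In HFD+binge against HFD+maltose, *Tat* rose and *Apoa1* and *Apoa2* fell, where 11.0% of all genes were higher and 8.39% lower. In whole liver, fewer cells of a type and less RNA per cell cannot be told apart.

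**Figure D1:**
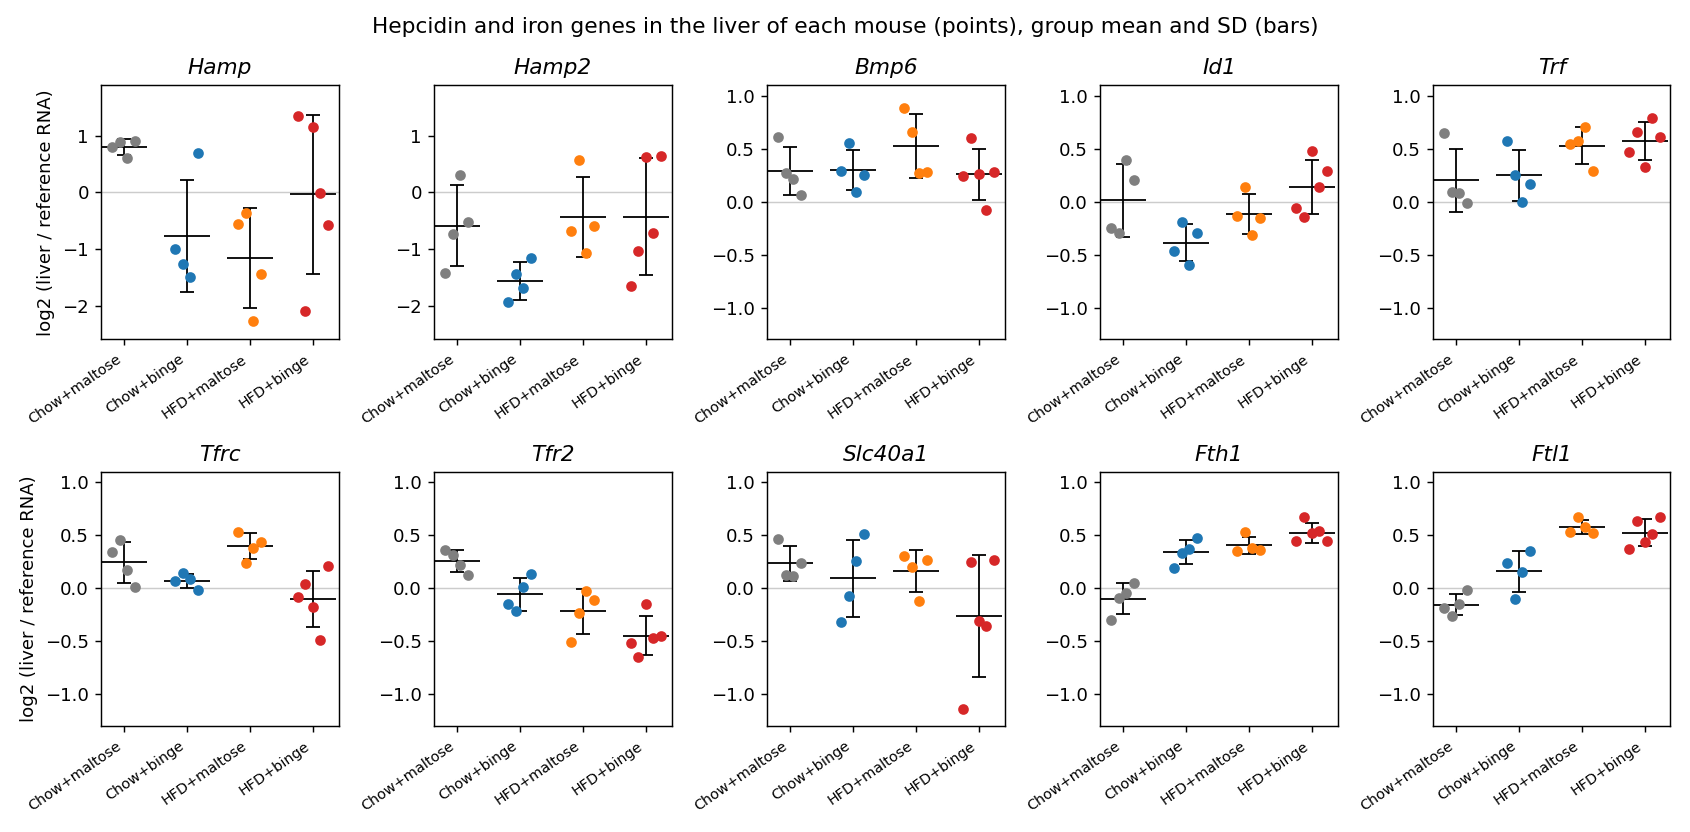
Log2 ratio of liver to reference RNA (vertical axis) of the 10 iron genes in each mouse, by group; points are mice, long horizontal bars are group means and error bars are 1 SD, and the vertical axes of *Hamp* and *Hamp2* span a wider range than the others. *Hamp* is tight in Chow+maltose (0.61 to 0.90) and wide in HFD+binge (-2.10 to 1.36), whereas *Fth1* and *Ftl1* lie lowest in Chow+maltose.

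The ferritin genes and *Tfr2* gave most of the calls, where a gene counts as called if its limma p, adjusted over all probes, was at most 0.05. In Chow+binge against Chow+maltose 1 of the 10 genes rose and 0 fell, beside 2.09% and 2.04% of all genes (4.13% in either direction). In HFD+maltose against Chow+maltose 2 rose and 1 fell, beside 4.50% and 6.47% of all genes (11.0% in either direction). In HFD+binge against HFD+maltose 0 rose and 1 fell, beside 11.0% and 8.39% (19.4%).

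HFD+binge against Chow+binge gave 2 genes that rose and 1 that fell, beside 6.28% and 5.15% of all genes (11.4%), and HFD+binge against Chow+maltose gave 2 and 1, beside 8.90% and 7.40% (16.3%). For the interaction of diet and ethanol 0 were called in limma, beside 2.66% and 1.72% (4.38%), although 4 (*Hamp*, *Id1*, *Fth1* and *Ftl1*) had an unadjusted p under 0.05. The comparisons share groups, so the counts are not independent of one another.

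Applied to the loess-normalized values, a rule of at least 2-fold with an unadjusted p of 0.05 or less picked only the hepcidin genes. It took *Hamp* as lower in Chow+binge (0.424% of all genes lower and 0.635% higher) and in HFD+maltose (1.37% lower and 0.563% higher), both against Chow+maltose, and as higher in the interaction (1.66% higher and 0.594% lower). *Hamp2* was taken as higher in HFD+binge against Chow+binge (1.22% higher and 0.687% lower). It took 0 of the 10 in HFD+binge against HFD+maltose (1.55% higher and 0.563% lower) or against Chow+maltose (1.83% higher and 1.20% lower).

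*Hamp* had the widest range of the 10 genes, from -2.27 to 1.36 on the log2 scale, or 12.4-fold, and none of its differences between groups passed the threshold of an adjusted p of 0.05 in limma. In the 4 Chow+maltose mice its log2 ratio was 0.80, 0.90, 0.61 and 0.90 (mean 0.80 ± 0.14 SD). In the Chow+binge mice it was -0.99, -1.27, -1.49 and 0.69. In this group 3 mice lay far under every Chow+maltose mouse, and mouse 4 lay among them. In the HFD+maltose mice it was -0.56, -0.37, -2.27 and -1.45, all under the Chow+maltose range. In the HFD+binge mice it was 1.36, -2.10, 1.16, -0.01 and -0.57 (SD 1.41), so this group spanned nearly the whole range of the study, with 2 mice above every Chow+maltose mouse and 1 mouse almost as low as the lowest HFD+maltose mouse.

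The difference of HFD+maltose from Chow+maltose in *Hamp* was -1.96 (SE 0.61, 3.90-fold lower), with an adjusted p of 0.0508 and an unadjusted p of 0.0051. This difference lies at the threshold, and its call changed with single mice and with the processing. It was made without Chow+binge mouse 4 (adjusted p = 0.0363), without HFD+maltose mouse 2 (0.0425; difference -2.23) and without HFD+binge mouse 1 (0.036), mouse 2 (0.0193) or mouse 3 (0.0455), and the adjusted p ran from 0.0193 to 0.167 when each of the 17 mice was left out in turn. It was also made with the slide as a block (-2.34, adjusted p = 0.0224), with median centring (-2.35, adjusted p = 0.00878), without background subtraction (-1.96, adjusted p = 0.0389) and among probes well above background on all arrays (adjusted p = 0.0362), but not with the liver signal alone (-1.66, adjusted p = 0.109). Nor was the call made in the authors' table, without the filter on dim probes, with probe means or in the methods' analysis of variance. Within the 3 slides that held both groups the difference was negative each time, from -3.18 to -1.27. The Chow+binge difference from Chow+maltose was -1.57 (SE 0.61, adjusted p = 0.222), and without Chow+binge mouse 4 it was -2.05 (adjusted p = 0.0876).

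On the high-fat diet the mean of *Hamp* was higher with ethanol, without passing the threshold. HFD+binge minus HFD+maltose was 1.13 (95% interval -0.10 to 2.36, adjusted p = 0.195). Without HFD+binge mouse 2 it was 1.65 with an adjusted p of 0.0323. The interaction of diet and ethanol, the ethanol effect on the high-fat diet minus that on chow, was 2.70 (SE 0.85, unadjusted p = 0.00525, adjusted p = 0.0803). It passed the threshold without Chow+binge mouse 4 (3.18, adjusted p = 0.0427), without HFD+binge mouse 2 (3.21, adjusted p = 0.0208), with the slide as a block (3.05, adjusted p = 0.0396) and when arrays were only centred on their medians (3.14, adjusted p = 0.018). Only 2 of the 17 fits that left out 1 mouse called the interaction (adjusted p 0.0208 to 0.159). Over the processing settings it ran from 2.18 to 3.14 (adjusted p 0.018 to 0.212). It stayed uncalled in the authors' table, with the liver signal alone, without background subtraction and with the replicate block. HFD+binge against Chow+maltose was -0.83 (adjusted p = 0.414) and HFD+binge against Chow+binge 0.73 (adjusted p = 0.543). The first was -0.32 without HFD+binge mouse 2. The second was 1.22 without Chow+binge mouse 4, and 0.39, 1.25 and 0.43 without HFD+binge mouse 1, 2 and 3, and none of these was called.

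*Hamp2* had another pattern over the same livers. Its log2 ratio was -1.42, -0.74, 0.32 and -0.52 in Chow+maltose and -1.94, -1.45, -1.70 and -1.17 in Chow+binge. It was -0.68, 0.58, -1.06 and -0.60 in HFD+maltose and -1.66, -1.04, 0.63, -0.72 and 0.65 in HFD+binge. The Chow+binge mice were the most uniformly low (SD 0.33). Chow+maltose mouse 1 (-1.42) and HFD+binge mouse 1 (-1.66) lay within their range, and the other groups overlapped one another. No difference passed the threshold. The largest was HFD+binge against Chow+binge at 1.14 (SE 0.44, adjusted p = 0.126), which reached an adjusted p of 0.035 without HFD+binge mouse 1 (1.44) and of 0.0444 with median centring (1.25). Over the 17 arrays, *Hamp* and *Hamp2* had a Pearson r of 0.24 and a Spearman rho of 0.21, given as a description of livers that share slides and groups.

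*Bmp6*, the BMP ligand made mainly by liver endothelial cells, differed little between groups. Its group means were 0.29 ± 0.23 (SD, n = 4) in Chow+maltose, 0.30 ± 0.19 (n = 4) in Chow+binge, 0.52 ± 0.30 (n = 4) in HFD+maltose and 0.26 ± 0.24 (n = 5) in HFD+binge. None of the neighbouring means in that order differed beyond their spread. Both HFD+maltose contrasts fell short of the threshold, with 0.23 against Chow+maltose (95% interval -0.10 to 0.57) and -0.26 for HFD+binge against HFD+maltose (95% interval -0.58 to 0.06). The dimmer *Bmp6* probe (raw liver signal 41 to 107) gave the opposite signs, -0.12 and 0.12, so the probes did not share a direction for this gene. By this probe all Chow+binge mice lay under all Chow+maltose mice (-0.19, unadjusted p = 0.0513, adjusted p = 0.367 in limma). Its interaction of diet and ethanol was 0.31 (unadjusted p = 0.0253, adjusted p = 0.178), and neither was called.

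*Id1* is a direct transcriptional target of BMP and SMAD signaling and is often read beside hepcidin. Its log2 ratio was -0.25, -0.30, 0.39 and 0.20 in Chow+maltose, -0.46, -0.20, -0.59 and -0.29 in Chow+binge, and -0.14, 0.14, -0.31 and -0.16 in HFD+maltose. In HFD+binge it was -0.06, -0.15, 0.48, 0.14 and 0.29, and every one of these mice lay above every Chow+binge mouse. *Id1* rose in HFD+binge against Chow+binge by 0.53 (SE 0.16, 1.44-fold, adjusted p = 0.0381), and the second probe, which shares 50 of its 60 bases with the first, gave 0.54 (adjusted p = 0.0207). Within the 4 slides that held both groups the difference was 0.40 to 0.49. The size of the *Id1* difference depended on the processing, and ran from 0.49 to 1.53 over the settings that kept all mice. Over the same settings the *Id1* interaction of diet and ethanol ran from 0.59 to 1.95. The call is close to its threshold. It was lost without Chow+binge mouse 1 (0.50), mouse 3 (0.46) or mouse 4 (0.56). It was also lost without HFD+binge mouse 3 (0.44), mouse 4 (0.53) or mouse 5 (0.49). The slide as a block (0.50, adjusted p = 0.0626) and the liver signal alone (0.51, adjusted p = 0.147) lost it too. So did the replicate block (0.49, adjusted p = 0.0753), in which HFD+binge mouse 5 was the only mouse of its number.

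*Id1* and *Hamp2* went up and down together in the same livers. Among 15370 genes whose brightest probe was well above background on all 17 arrays, *Hamp2* was the gene most like *Id1* by Pearson r (0.85, Spearman rho 0.81, 17 arrays). The r was 0.84 after the group means were removed, 0.85 after the slide means were removed, 0.77 without the 2 mice farthest from the median of *Hamp2* (HFD+binge 3 and 5) and 0.82 in the authors' table. *Hamp* and *Id1* had an r of 0.45, and *Bmp6* and *Id1* -0.13. These values describe the livers, which share groups, slides and the reference RNA, and the first pair is the closest of many, so no test is attached to it.

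**Figure D2:**
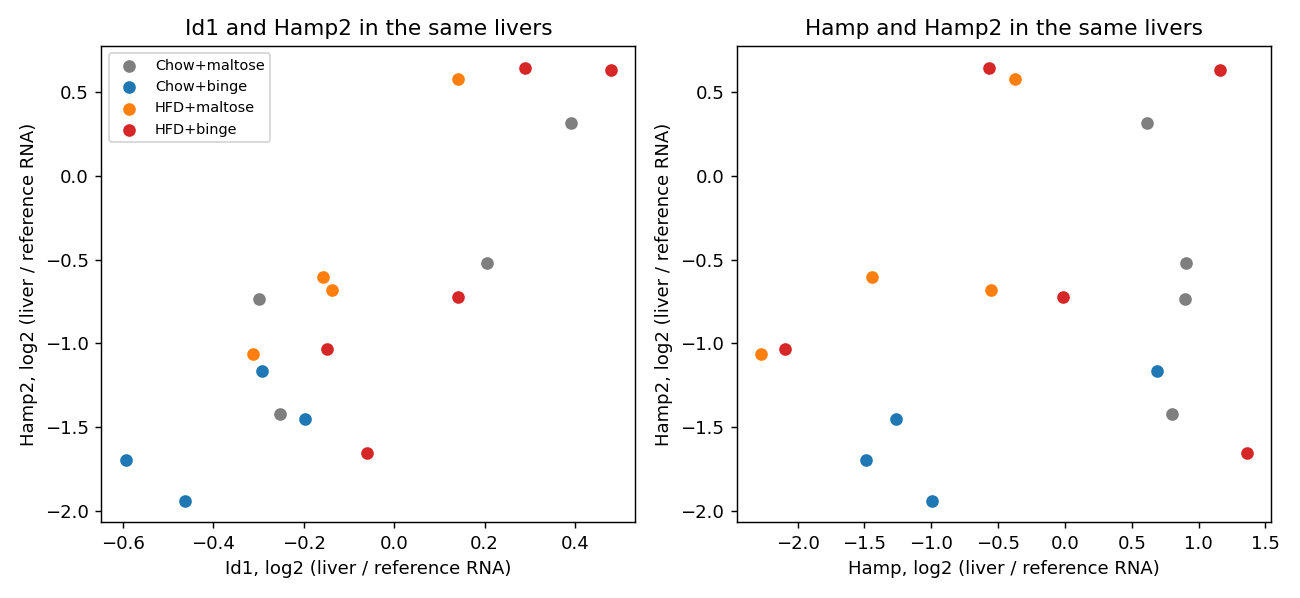
Log2 ratio of *Hamp2* (vertical axis) against *Id1* (left) and against *Hamp* (right), 1 point per liver, colored by group. The 17 points lie along a rising band for *Id1* (Pearson r 0.85) and scatter for *Hamp* (Pearson r 0.24).

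A few other genes of the BMP and SMAD pathway were called. In HFD+binge against Chow+maltose, 2 of the 17 tested pathway genes rose and 3 fell (median difference 0.08), beside a median of 0.00 over all 19358 genes, of which 16.3% were called in either direction. The activin and BMP receptor gene *Acvr2b* fell by 0.85 (adjusted p = 1.66e-05) and was also lower in HFD+maltose (-0.62) and Chow+binge (-0.49) than in Chow+maltose. *Smad1*, the signal transducer, rose by 0.76 (adjusted p = 0.00179) and was 0.66 higher than in HFD+maltose. *Hfe2*, hemojuvelin, the BMP co-receptor that hepcidin expression requires, rose by 0.56 (adjusted p = 0.012), and by 0.84 in HFD+maltose against Chow+maltose. *Bmp7* fell by 0.44 in HFD+binge and by 0.81 in HFD+maltose, both against Chow+maltose, where 1 Chow+maltose mouse had no value.

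Of the 8 other targets of BMP and SMAD signaling tested, 0 rose and 2 fell in HFD+binge against Chow+maltose, beside 8.90% and 7.40% of all genes. The 2 were *Smad9* (-0.53) and *Smad7*, the inhibitor of the pathway (-0.53). *Id3*, a relative of *Id1*, fell in Chow+binge against Chow+maltose by 0.85 (adjusted p = 0.00971) and rose in HFD+binge against Chow+binge by 0.75 (adjusted p = 0.0079). *Id2* went the other way in HFD+binge against Chow+binge, with -0.94 (adjusted p = 0.0221). The interaction of diet and ethanol was 1.06 for *Id3* (adjusted p = 0.0227) and -1.42 for *Id2* (adjusted p = 0.0367).

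The inflammatory input to hepcidin was measured by 16 genes. In HFD+binge against HFD+maltose 6 of them rose and 1 fell, where 19.4% of all genes were called. *Stat3* rose by 1.40 (adjusted p = 1.82e-05), *Cebpb*, a transcription factor of the acute phase response, by 1.30 (adjusted p = 0.00055), *Socs3*, the feedback inhibitor of STAT3 signaling, by 1.01 (adjusted p = 0.00247) and the interleukin-6 receptor gene *Il6ra* by 0.81 (adjusted p = 0.0214). Mean log2 ratios of *Il6ra* were -0.11 in Chow+maltose, -0.93 in HFD+maltose and -0.13 in HFD+binge, and it was called lower in HFD+maltose against Chow+maltose. Those of *Socs3* were -0.48, -0.95 and 0.06. Neither gene was called in HFD+binge against Chow+maltose, and the cytokine genes *Il6*, *Il1b* and *Il22* were called in no comparison. *Stat3* was also higher in Chow+binge than in Chow+maltose, by 0.77 (adjusted p = 0.00708). In that comparison, *Inhba*, which encodes a subunit of activin, rose by 1.55 (adjusted p = 0.000158). Its difference in HFD+binge against Chow+binge was -1.95 (adjusted p = 4.93e-06). *Cebpa*, a transcription factor that drives *Hamp*, fell by 1.08 in HFD+binge against Chow+maltose (adjusted p = 0.041), with no value in 1 HFD+binge mouse.

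Among the genes of iron uptake into liver, *Tfr2* fell with the diet. *Tfr2* encodes transferrin receptor 2, with which hepatocytes sense iron-loaded transferrin. Its log2 ratio was 0.36, 0.31, 0.22 and 0.13 in Chow+maltose and -0.15, -0.22, 0.01 and 0.13 in Chow+binge. It was -0.50, -0.23, -0.02 and -0.11 in HFD+maltose and -0.51, -0.65, -0.15, -0.47 and -0.45 in HFD+binge. All mice on the high-fat diet lay under every Chow+maltose mouse, and the HFD+binge group had the lowest mean (-0.45 ± 0.19 SD).

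*Tfr2* was lower by -0.70 on the log2 scale in HFD+binge against Chow+maltose (SE 0.11, 1.63-fold lower, adjusted p = 0.000366), and the adjusted p was 0.0141 or less in every refit that was tried, although the change is under 2-fold. It was also lower in HFD+maltose against Chow+maltose (-0.47, SE 0.12, adjusted p = 0.0194), a call that was lost without Chow+maltose mouse 1 (-0.44) or HFD+maltose mouse 1 (-0.38) and with the liver signal alone (-0.61, adjusted p = 0.0566). In HFD+binge against Chow+binge it was lower by -0.39 (SE 0.11, adjusted p = 0.0372), in groups that overlap, and 7 of the 17 fits that left out 1 mouse lost this call: without Chow+binge mouse 1 (-0.42), 3 (-0.37) or 4 (-0.33) and without HFD+binge mouse 1 (-0.37), 2 (-0.34), 4 (-0.38) or 5 (-0.39). It was also lost with median centring (-0.30, adjusted p = 0.296), in the authors' table (-0.37, adjusted p = 0.105) and with the liver signal alone (-0.28, adjusted p = 0.474). The difference of Chow+binge from Chow+maltose was -0.31 (unadjusted p = 0.0188, adjusted p = 0.212). Within every slide that held both groups of a comparison, *Tfr2* was lower in the Chow+binge, HFD+maltose and HFD+binge mice than in the Chow+maltose mouse.

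*Tfrc* encodes transferrin receptor 1, which carries transferrin-bound iron into cells. The log2 ratio of *Tfrc* was 0.34, 0.45, 0.18 and 0.01 in Chow+maltose and 0.07, 0.14, 0.09 and -0.01 in Chow+binge. It was 0.54, 0.24, 0.38 and 0.43 in HFD+maltose and -0.08, 0.05, -0.18, -0.49 and 0.21 in HFD+binge. All HFD+binge mice lay under all HFD+maltose mice. HFD+binge overlapped both chow groups, whereas HFD+maltose overlapped Chow+maltose and lay above all Chow+binge mice.

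*Tfrc* fell in HFD+binge against HFD+maltose by 0.50 on the log2 scale (SE 0.12, 1.41-fold lower, adjusted p = 0.00889), and each of the 17 fits that left out 1 mouse kept the call (adjusted p 0.00291 to 0.0291). With median centring the difference was -0.32 and was not called (adjusted p = 0.0977). Against Chow+maltose the HFD+binge difference was -0.34 (adjusted p = 0.0673), called without Chow+maltose mouse 4 (-0.42, adjusted p = 0.0425) and without HFD+binge mouse 5 (-0.42, adjusted p = 0.0228). The gene most like *Tfrc* was *Oit3*, a marker of liver sinusoidal endothelium (r 0.90 over 17 arrays). In HFD+binge against HFD+maltose, 8.39% of all genes fell and 11.0% rose. Of the 11 endothelial markers tested there, 5 fell (*Kdr*, *Dnase1l3*, *Clec4g*, *Oit3* and *Stab2*) and 2 rose (*Lyve1* and *Cdh5*). Their mean log2 level relative to Chow+maltose was -0.18 to 0.16 in HFD+binge and 0.14 to 0.40 in HFD+maltose. The part of endothelial RNA in the *Tfrc* difference was not tested.

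*Trf*, which encodes transferrin, the iron carrier of plasma and an abundant product of hepatocytes, gave no call. Its mean log2 ratio was 0.20 ± 0.30 (SD, n = 4) in Chow+maltose, 0.25 ± 0.24 (n = 4) in Chow+binge, 0.53 ± 0.17 (n = 4) in HFD+maltose and 0.57 ± 0.18 (n = 5) in HFD+binge. The HFD+binge difference from Chow+maltose was 0.37 (95% interval 0.07 to 0.67, adjusted p = 0.0941) and that of HFD+maltose 0.33 (95% interval 0.01 to 0.65, adjusted p = 0.176). Chow+maltose mouse 1 (0.64) lay far above the 3 other mice of its group (0.09, 0.08 and -0.02). Without it the differences were 0.52 (adjusted p = 0.0138) and 0.48 (adjusted p = 0.0475), whereas with median centring and all mice they were 0.22 (adjusted p = 0.496) and -0.07 (adjusted p = 0.825).

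Of 11 other genes of iron uptake, 5 rose and 0 fell in HFD+binge against Chow+maltose, with a median difference of 0.51, beside 8.90% and 7.40% of all genes. *Steap4*, a metalloreductase, rose by 2.99 (adjusted p = 0.00136) and *Slc39a14*, the zinc and iron transporter ZIP14 of hepatocytes, by 1.76 (adjusted p = 0.000264). The iron transporters *Slc11a1* (0.81, adjusted p = 0.00024) and *Slc11a2* (0.54, adjusted p = 0.0381) were also higher, the former being a macrophage gene. *Steap4* (2.47) and *Slc39a14* (1.57) were higher in HFD+binge than in HFD+maltose too. In Chow+binge against Chow+maltose 0 of the 11 were called, beside 4.13% of all genes. *Steap4* lacked a value in 1 Chow+binge and 1 HFD+maltose mouse, which the fit dropped.

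*Slc40a1*, which encodes ferroportin, gave no call and had a wide spread. The log2 ratio of *Slc40a1* was 0.46, 0.13, 0.11 and 0.24 in Chow+maltose and -0.31, -0.07, 0.25 and 0.51 in Chow+binge. It was 0.31, 0.20, -0.12 and 0.27 in HFD+maltose and -1.14, 0.25, -0.31, -0.36 and 0.26 in HFD+binge. HFD+binge mouse 1, the lowest by a wide margin, was also the mouse with the highest *Hamp*. Over the 17 arrays, however, *Hamp* and *Slc40a1* had a Pearson r of only -0.21. The HFD+binge difference from Chow+maltose in *Slc40a1* was -0.49 (95% interval -0.98 to -0.01, unadjusted p = 0.044, adjusted p = 0.174), and without HFD+binge mouse 1 it was -0.27 (adjusted p = 0.372). *Cp*, ceruloplasmin, the ferroxidase that works with ferroportin, rose in HFD+binge against Chow+maltose by 0.51 (adjusted p = 0.0139). It was 1 of 3 other export genes tested, in a comparison that called 16.3% of all genes. *Cp* had no value in 1 mouse each of Chow+maltose, HFD+maltose and HFD+binge.

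Both ferritin subunit genes were higher in livers of mice on the high-fat diet, and the heavy chain was also higher after ethanol on chow. *Fth1* encodes the heavy chain of ferritin, which oxidizes iron for storage. Its log2 ratio was -0.30, -0.09, -0.05 and 0.05 in Chow+maltose and 0.19, 0.34, 0.37 and 0.47 in Chow+binge. It was 0.36, 0.53, 0.38 and 0.36 in HFD+maltose and 0.45, 0.68, 0.52, 0.54 and 0.45 in HFD+binge. Every mouse given ethanol, the high-fat diet or both lay above every Chow+maltose mouse.

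*Fth1* rose in Chow+binge against Chow+maltose by 0.44 (SE 0.09, 1.36-fold, adjusted p = 0.0105). It was the only 1 of the 10 genes called in that comparison, where 4.13% of all genes were called. It rose by 0.50 in HFD+maltose (SE 0.09, 1.42-fold, adjusted p = 0.00271) and by 0.62 in HFD+binge (SE 0.09, 1.54-fold, adjusted p = 9.61e-05), both against Chow+maltose. All of the 17 fits that left out 1 mouse kept each of these calls. The 95% interval of HFD+binge minus HFD+maltose ran from -0.06 to 0.30 and that of HFD+binge minus Chow+binge from -0.00 to 0.37.

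*Ftl1* encodes the light chain, which supports formation of the iron core. The log2 ratio of *Ftl1* was -0.19, -0.26, -0.15 and -0.02 in Chow+maltose and 0.23, -0.10, 0.15 and 0.35 in Chow+binge. It was 0.53, 0.67, 0.58 and 0.53 in HFD+maltose and 0.37, 0.64, 0.44, 0.51 and 0.67 in HFD+binge. The high-fat groups overlapped each other and lay above all chow mice.

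*Ftl1* rose in HFD+maltose against Chow+maltose by 0.73 (SE 0.10, 1.66-fold, adjusted p = 0.000339) and in HFD+binge against Chow+maltose by 0.68 (SE 0.10, 1.60-fold, adjusted p = 9.6e-05). It also rose in HFD+binge against Chow+binge by 0.36 (SE 0.10, adjusted p = 0.0204), a call lost without Chow+binge mouse 2 (0.28, adjusted p = 0.0857) or mouse 3 (0.36, adjusted p = 0.0542). That call was also lost with median centring (0.40, adjusted p = 0.192), in the authors' table (0.35, adjusted p = 0.111) and with the liver signal alone (0.17, adjusted p = 0.603). The Chow+binge difference from Chow+maltose was 0.32 (adjusted p = 0.108) and was called without Chow+binge mouse 2 (0.40, adjusted p = 0.036). *Ftl2*, listed by the table as another light chain gene, rose by 0.73 in HFD+maltose and by 0.47 in HFD+binge against Chow+maltose. The light chain gene has near-identical copies, so these probes may share signal.

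The ferritin calls depend on how the arrays were scaled. With median centring in place of loess, *Fth1* was 0.27 in Chow+binge, 0.11 in HFD+maltose and 0.49 in HFD+binge against Chow+maltose, *Ftl1* was 0.31 in HFD+maltose and 0.52 in HFD+binge, and none of them was called (adjusted p from 0.0505 to 0.744). The *Fth1* call in Chow+binge was also lost in the authors' table (0.38, adjusted p = 0.14) and with the liver signal alone (0.36, adjusted p = 0.226), as was that of *Ftl1* in HFD+binge with the liver signal alone (0.29, adjusted p = 0.205). Macrophages hold much ferritin, and 4 of 11 macrophage markers rose in HFD+maltose (4.50% of all genes higher), 3 in HFD+binge (8.90%) and 0 in Chow+binge (2.09%), all against Chow+maltose. The mean log2 level of these markers relative to Chow+maltose was -0.28 to 0.37 in Chow+maltose, -0.09 to 0.18 in Chow+binge, 0.42 to 0.52 in HFD+maltose and 0.24 to 0.87 in HFD+binge, and their part in the ferritin differences was not tested.

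**Figure D3:**
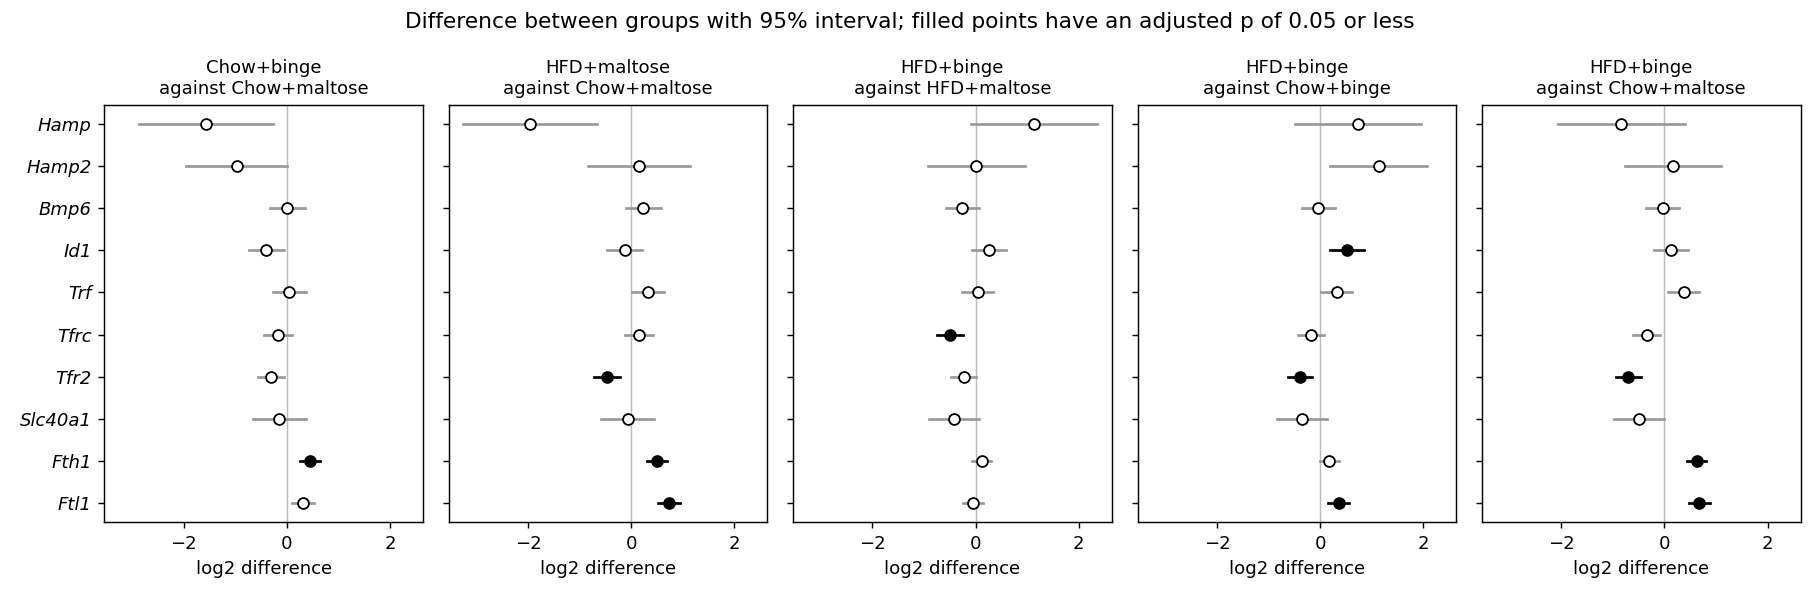
Log2 difference (horizontal axis) of each of the 10 genes in 5 comparisons between groups; points are the limma estimates, lines their 95% intervals, and filled points have an adjusted p of 0.05 or less. Ferritin genes lie to the right and *Tfr2* to the left wherever a high-fat group is set against Chow+maltose, and the intervals of *Hamp* are the widest.

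Heme is made from iron, and some of the genes that make it fell with ethanol on both diets. Of 12 heme synthesis genes, 0 rose and 3 fell in Chow+binge against Chow+maltose (median -0.13), where 2.04% of all genes were lower. On the high-fat diet 0 rose and 4 fell in HFD+binge against HFD+maltose (median -0.24), where 8.39% of all genes were lower. In HFD+binge against Chow+maltose 0 rose and 5 fell (median -0.29), where 7.40% of all genes were lower. *Alas1*, the rate-limiting enzyme, had a mean log2 ratio of 0.83 ± 0.21 (SD, n = 4) in Chow+maltose, -1.06 ± 0.43 (n = 4) in Chow+binge, 0.39 ± 0.45 (n = 4) in HFD+maltose and -0.45 ± 0.42 (n = 5) in HFD+binge. It fell by 1.89 in Chow+binge (adjusted p = 0.000202) and by 1.28 in HFD+binge (adjusted p = 0.000949), both against Chow+maltose. *Cpox*, coproporphyrinogen oxidase, fell by 0.94 in HFD+binge (adjusted p = 0.000198), *Alad* by 0.47 (adjusted p = 0.00773) and *Abcb6* by 0.49 (adjusted p = 0.0498), all against Chow+maltose. In HFD+maltose against Chow+maltose 0 of the 12 were called in either direction, beside 11.0% of all genes.

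Of 14 genes that recover or break down heme and hemoglobin, 3 rose and 0 fell in HFD+binge against Chow+maltose (median 0.05), beside 8.90% and 7.40% of all genes, so the count of called genes was near that over all genes. They were *Hp*, haptoglobin, which binds hemoglobin (2.05, adjusted p = 0.000308), *Hpx*, hemopexin, which binds heme (1.57, adjusted p = 0.000558, no value in 1 Chow+maltose mouse), and *Hmox1*, heme oxygenase 1, which breaks heme down (0.89, adjusted p = 0.00288). *Bach1*, a heme-sensing repressor of *Hmox1* and the ferritin genes, fell by 0.75 in Chow+binge (adjusted p = 0.0349) and by 1.36 in HFD+maltose (adjusted p = 0.000389), both against Chow+maltose, and was 1.19 higher in HFD+binge than in HFD+maltose (adjusted p = 0.00037). Its interaction was 1.93 (adjusted p = 0.00184). The hemoglobin genes *Hbb-bt* (0.82) and *Hba-a1* (0.78), 2 of 9 erythroid markers tested, were also higher in HFD+binge than in Chow+maltose (8.90% of all genes higher). *Klf1* was lower (-0.50). The summed liver signal of 8 erythroid markers was 39888 to 58304 in HFD+binge, 27371 to 41414 in HFD+maltose and 23186 to 33002 in Chow+maltose. The mean log2 level of the 9 markers overlapped, at 0.04 to 0.40 in HFD+binge and -0.13 to 0.17 in Chow+maltose, relative to the Chow+maltose mean. The part of erythroid RNA in the heme gene differences was not tested.

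Of 9 genes for iron regulatory proteins and oxygen sensing, 3 rose and 1 fell in HFD+binge against Chow+maltose, where 16.3% of all genes were called. The hypoxia factor genes *Epas1* (1.01, adjusted p = 0.000164, 4 of 5 HFD+binge mice) and *Hif1a* (0.83, adjusted p = 0.00129) were higher, as was *Egln3* (0.60, adjusted p = 0.00236), and *Aco1*, which encodes iron regulatory protein 1, fell by 0.42 (adjusted p = 0.0103). Of 15 genes of mitochondrial iron and iron-sulfur clusters, 1 rose (*Slc25a28*, 0.42) and 1 fell (*Fdx1*, -0.64) in the same comparison. Of 6 other storage and chaperone genes, *Ftl2* alone was called. Over all lists, 111 genes were tested, and 20 rose and 13 fell, beside 8.90% and 7.40% of all genes.

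**Figure D4:**
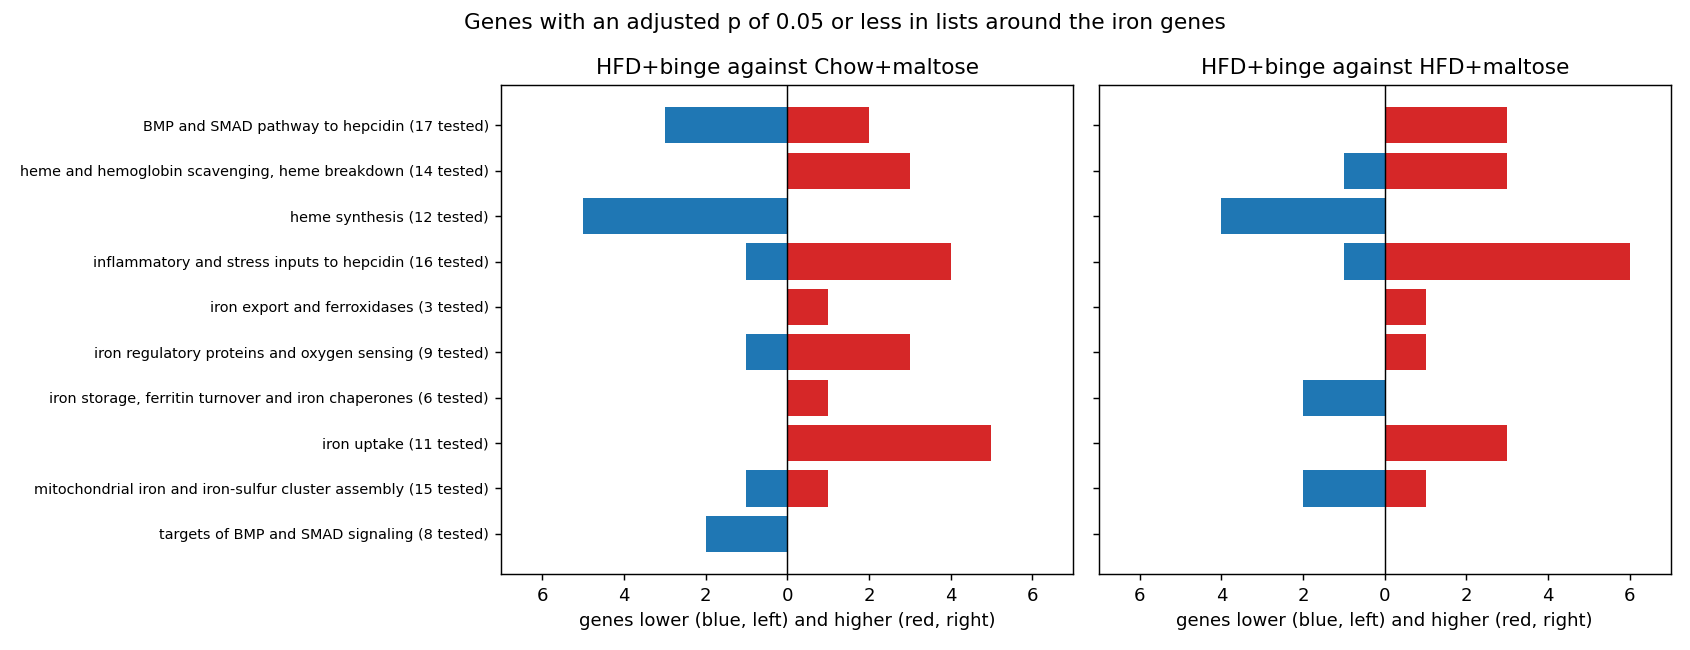
Number of genes (horizontal axis) with an adjusted p of 0.05 or less in 10 lists of genes around iron handling, for HFD+binge against Chow+maltose (left) and against HFD+maltose (right); red bars to the right count higher genes and blue bars to the left lower genes. In the left panel heme synthesis shows 5 lower and 0 higher, and iron uptake 5 higher and 0 lower.

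For each member the gene most like it over the 17 arrays was named by Pearson r among 15369 genes or more. *Hamp* was closest to *Coq10b* (0.86), *Tfr2* to *Gpld1* (0.94), *Trf* to *Cdkn3* (0.95), *Fth1* to *Xrn2* (0.91), *Ftl1* to *Elovl5* (0.93), *Slc40a1* to *Aqp11* (0.85), *Bmp6* to *Cav2* (0.91) and *Hamp2* to *Efcab14* (0.86). Between members, *Fth1* and *Ftl1* had an r of 0.84, which was 0.40 after group means were removed. *Bmp6* and *Tfrc* had an r of 0.59, which was 0.54 after group means were removed. These values describe 17 livers that share slides, groups and the reference RNA.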

How the data were processed

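The authors hybridized liver cDNA (Cy5) with a common reference RNA (Cy3) to 2-color Agilent arrays, with no dye swap, and extracted spots with Feature Extraction 11.5.1.1. The deposited scanner files hold each spot's raw intensity and local background, and processed intensity. The authors' table holds log2 ratios of liver to reference, which equal those of the processed signals (largest difference 2.7e-06). The labels name the reference an assorted mouse RNA and also liver.

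Signals were corrected by normexp (offset 50) and loess within arrays. Outlier spots were left out and spots of a probe averaged. Probes well above background in Cy5 on at least 4 of 17 arrays, with a value in every group, were tested (3424 values missing). limma 3.58.1 (R 4.3.3) fitted 4 group means, with 13 residual degrees of freedom and Benjamini-Hochberg adjustment over all 34664 probes, and a call is an adjusted p of 0.05 or less. The fit was tested on simulated data. The number of arrays limits the precision, and p-values measure the spread between mice. Depth does not apply to arrays.

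Named genes are all members, up to 4 called genes of each list by size per comparison, cell type markers that move with a member, and the genes most like each member. The members and lists were chosen with earlier results of these data known. Alternatives were no background subtraction, median centring, the authors' table, Cy5 alone, 2 other filters, slide and replicate blocks, probe means, the methods' analysis of variance, a 2-fold rule and leaving out each mouse. Same-numbered mice were compared to see whether the numbers pair them.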

Additional observations from a re-analysis of the deposited data

Results flagged for a closer look

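Among the 40 sets of values given by 10 genes in 4 groups, 2 held a mouse far from the others of its group, where chance flags about 1 in 20. *Trf* in Chow+maltose mouse 1 was the highest of its group, with a gap to the next mouse of 0.838 of the group's range. *Fth1* in HFD+maltose mouse 2 was the highest of its group, with a gap of 0.853 of the range.

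The ethanol effect differed between diets, by the interaction in limma, for 0 of the 10 members and for 6 of the 111 pathway genes, beside 4.38% of all genes. The interaction was 1.93 for *Bach1*, 2.11 for *Cebpb* (adjusted p = 0.00244), 0.52 for *Picalm* (adjusted p = 0.0399) and 1.06 for *Id3*. It was -2.25 for *Inhba* (adjusted p = 0.00154) and -1.42 for *Id2*. *Picalm*, which encodes a clathrin assembly protein, had values in 3 of 4 HFD+maltose and 3 of 5 HFD+binge mice.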

How the results depend on the processing

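Counts below are members called, of 10. With median centring, 0 rose in Chow+binge (1 as reported), 0 in HFD+maltose (2) and 0 in HFD+binge (2) against Chow+maltose, 1 was higher in the interaction (0), 2 fell in HFD+maltose against Chow+maltose (1), and 0 fell in HFD+binge against HFD+maltose (1) or Chow+binge (1). Median centring moved the median of all genes by 0.13 in HFD+binge against HFD+maltose and by 0.15 in the interaction. Of all genes called, 13.7% were then higher in HFD+maltose against Chow+maltose (41.1% as reported), 89.1% in HFD+binge against HFD+maltose (56.6%), 75.6% in HFD+binge against Chow+binge (54.9%), 66.3% in HFD+binge (54.6%) and 40.3% in Chow+binge (50.6%) against Chow+maltose, and 93.3% in the interaction (60.7%).

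The authors' table gave 0 higher in Chow+binge against Chow+maltose and, in HFD+binge against Chow+binge, 1 higher (2) and 0 lower. The liver signal alone gave 0 higher in Chow+binge and 1 in HFD+binge against Chow+maltose, 0 higher and 0 lower in HFD+binge against Chow+binge, and 0 lower in HFD+maltose against Chow+maltose. Over all genes it called 194 for 800 in Chow+binge (519 with median centring, 500 in the authors' table), 654 for 2124 in HFD+maltose and 1271 for 3155 in HFD+binge against Chow+maltose, 1017 for 3748 in HFD+binge against HFD+maltose, 630 for 2213 against Chow+binge and 104 for 848 in the interaction. Then 25.1%, 70.9% and 82.7% were higher in HFD+maltose against Chow+maltose, HFD+binge against HFD+maltose and the interaction. Probes well above background on all arrays gave 1 higher in HFD+binge against Chow+binge and 2 lower in HFD+maltose, as did the slide as a block, which also gave 1 higher in the interaction. No background subtraction gave 2 lower in HFD+maltose, and the methods' analysis of variance, which was not run for the interaction, gave 2 higher in Chow+binge. *Id1* was not tested with the filter on all arrays. The 2-fold rule gave 0 higher and 1 lower in Chow+binge, 0 higher in HFD+maltose, 0 higher and 0 lower in HFD+binge, all against Chow+maltose, 0 lower in HFD+binge against HFD+maltose, 1 higher and 0 lower against Chow+binge, and 1 higher in the interaction. The cause of these shifts was not tested.

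Same-numbered mice correlated in their deviations at -0.13 to 0.48 (24 pairs, median 0.18) and other mice at a median of -0.05. The 6 pairs of number 1, which share a slide, lay at 0.24 to 0.48, 16 of the 24 pairs were over 0.1, and 9 of 17 mice correlated best with a mouse of their own number. Pairing was not assumed because not every pair was over 0.1, although these values do not show that number or slide had no effect. The arrays lay on 5 slides. Mice of different groups on the same slide correlated at a median of 0.20 (21 pairs), and those on different slides at -0.04. The slide as a block gave, over all genes, 692 higher and 531 lower in the interaction, for 515 and 333. The replicate block gave 1 higher in HFD+binge against Chow+binge, 2 lower in HFD+maltose and 2 lower in HFD+binge against Chow+maltose, and over all genes 988 higher and 751 lower in the interaction, for 515 and 333; *Hamp* in HFD+maltose was then -1.96 (adjusted p = 0.0499). Leaving out each mouse in turn gave, for genes higher and lower, 1 to 2 and 0 in Chow+binge, 2 to 3 and 0 to 2 in HFD+maltose, and 2 to 3 and 1 to 2 in HFD+binge against Chow+maltose. It gave 0 to 1 and 1 in HFD+binge against HFD+maltose, 0 to 3 and 0 to 1 against Chow+binge, and 0 to 1 and 0 in the interaction. No called difference of a member changed sign in any of these fits. The genes of the lists were not followed through these fits, so how their calls depend on the processing was not tested. *Id1* was near background, which limits its precision.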
